A study of Mus musculus with 12 samples.

Results

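The data describe 9 natural killer (NK) and cytotoxic lymphocyte genes, Gzma, Gzmb, Prf1, Nkg7, Klrb1c, Klrd1, Ncr1, Il2rb and Eomes, among the 34745 genes measured in mouse bone marrow. They were taken by gene name, and all 9 were found once in the expression table. The study asked how marrow responded to a herbal granule, QJSB, and to leucogen, a drug given for low white cell counts, in mice made leucopenic with the alkylating agent cyclophosphamide. Total femoral marrow cells of male, outbred ICR mice were sequenced, with 3 mice in each of 4 groups and 1 library per mouse. The normal group received saline only, and the model group received cyclophosphamide and oral saline. The QJSB and leucogen groups received the same cyclophosphamide and an oral drug, so all 3 treated groups share the cyclophosphamide injections. Cyclophosphamide was given at 80 mg/kg/day on days 5 to 7 of 1 week of treatment, QJSB at 3 g/kg/day and leucogen at 20 mg/kg/day, as the methods of the study give them, which do not state the age of the mice. Of the group names in the table, only Model is also a name in the sample labels. Blank was read as normal and Positive as leucogen from their meaning, and Stilbene as QJSB because no other group was left. If Positive and Stilbene were crossed, every QJSB and leucogen value below would change places. The 12 libraries held between 11172547 and 18545198 counts.

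NK cells are lymphocytes that kill infected or transformed cells without prior sensitization. They store perforin, which opens the membrane of the target cell, and granzymes, proteases that enter through it and start cell death. Inhibitory and activating surface receptors decide when the granules are released, and marrow is the main site where NK cells develop, under interleukin-15 signals through the receptor chain Il2rb and the T-box factors Eomes and Tbx21. Activated CD8 T cells use the same granule proteins, so these genes do not mark NK cells alone.

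The members lie on 7 chromosomes of the GRCm38 (mm10) assembly, with gene bounds as the table gives them. The granule effectors are Gzma at chr13:113093825-113100979 (minus strand), Gzmb at chr14:56258856-56262260 (minus), Prf1 at chr10:61297836-61304263 (plus) and Nkg7 at chr7:43437073-43438249 (plus). The receptors are Klrb1c at chr6:128778485-128789215 (minus) and Klrd1 at chr6:129591782-129598775 (plus), both in the NK gene complex, and Ncr1 at chr7:4337724-4345164 (plus). The cytokine receptor chain Il2rb lies at chr15:78480553-78495066 (minus), and the transcription factor Eomes at chr9:118478212-118486132 (plus). Klrb1c overlaps Gm44511 on the same strand, which had at most 25 counts in a library. Klrb1c, Klrd1 and the granzymes belong to families with similar copies, so their counts carry an uncertainty that depends on how shared reads were assigned.

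Promoter sequences of 7 of the 9 members matched the RefSeq table (GRCm38.p6), and 3 are shown because Gzma and Ncr1 were the members that differed most between normal and model marrow in the negative direction, and Nkg7 the member that differed in the positive direction. The windows end at or before the annotated start. They are chr7:4337465-4337714 (plus strand) for Ncr1, chr13:113100982-113101231 (minus) for Gzma and chr7:43436888-43437072 (plus) for Nkg7. They are written 5′ to 3′ along the gene, and capitals mark the letters TGTGGT or their reverse complement ACCACA, the core that Runx factors recognise.
Ncr1: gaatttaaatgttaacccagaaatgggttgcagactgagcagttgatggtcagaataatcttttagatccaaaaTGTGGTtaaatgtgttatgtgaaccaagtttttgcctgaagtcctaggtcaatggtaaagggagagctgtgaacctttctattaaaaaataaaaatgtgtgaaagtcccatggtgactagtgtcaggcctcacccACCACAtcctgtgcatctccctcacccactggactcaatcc
Gzma: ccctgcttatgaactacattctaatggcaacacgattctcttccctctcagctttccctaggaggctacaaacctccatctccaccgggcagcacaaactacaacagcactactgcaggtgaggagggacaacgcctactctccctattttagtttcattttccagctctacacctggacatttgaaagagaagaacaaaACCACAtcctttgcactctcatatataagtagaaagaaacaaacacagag
Nkg7: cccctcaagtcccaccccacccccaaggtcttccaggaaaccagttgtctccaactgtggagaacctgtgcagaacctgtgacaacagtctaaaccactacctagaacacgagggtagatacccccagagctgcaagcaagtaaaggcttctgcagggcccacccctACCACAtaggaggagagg
The Runx letters were found once or more, on either strand, in the 250 bases before the start of 6 of the 7 members, all but Eomes, against 14.2% of 27025 promoter windows of the same length. The Ets letters AGGAAG or CTTCCT were found in Klrb1c, Nkg7 and Prf1, for Nkg7 in bases not shown here, against 29.2% of windows. The T-box letters TCACACC or GGTGTGA were found in the Nkg7 window only, in bases not shown here, against 3.31% of windows. These are matches of letters, and binding was not measured. Promoters of members with opposite responses, Ncr1 and Nkg7, both held the Runx letters.

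Levels of 1 gene in different libraries are given as CPM, its count scaled to an equal total for each library. Levels of different genes were compared by FPKM, mapped fragments scaled to transcript length and to the size of the library. In normal marrow Gzma was the highest of the members at 15.9 ± 1.75 FPKM (SD, n = 3), followed by Nkg7 at 12.3 ± 0.391 and Ncr1 at 7.37 ± 1.05, and the libraries of these 3 genes did not overlap. Klrd1 (3.06 ± 0.622 FPKM) and Il2rb (2.54 ± 0.653 FPKM) overlapped each other and lay above Klrb1c (1.76 ± 0.201 FPKM). Prf1, Gzmb and Eomes were lowest, at 0.971 ± 0.272, 0.762 ± 0.310 and 0.533 ± 0.139 FPKM, and each overlapped its neighbour in the order. After cyclophosphamide the order changed at the top. Nkg7 was first and apart from all other members in model (68.6 ± 9.04 FPKM), QJSB (74.2 ± 20.2 FPKM) and leucogen marrow (30.4 ± 7.13 FPKM). Below it, every member overlapped its neighbour in these 3 groups, with Gzma second in each, at 2.45 ± 2.17, 1.10 ± 0.244 and 7.70 ± 5.70 FPKM, in the same order of groups.

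**Figure D1:**
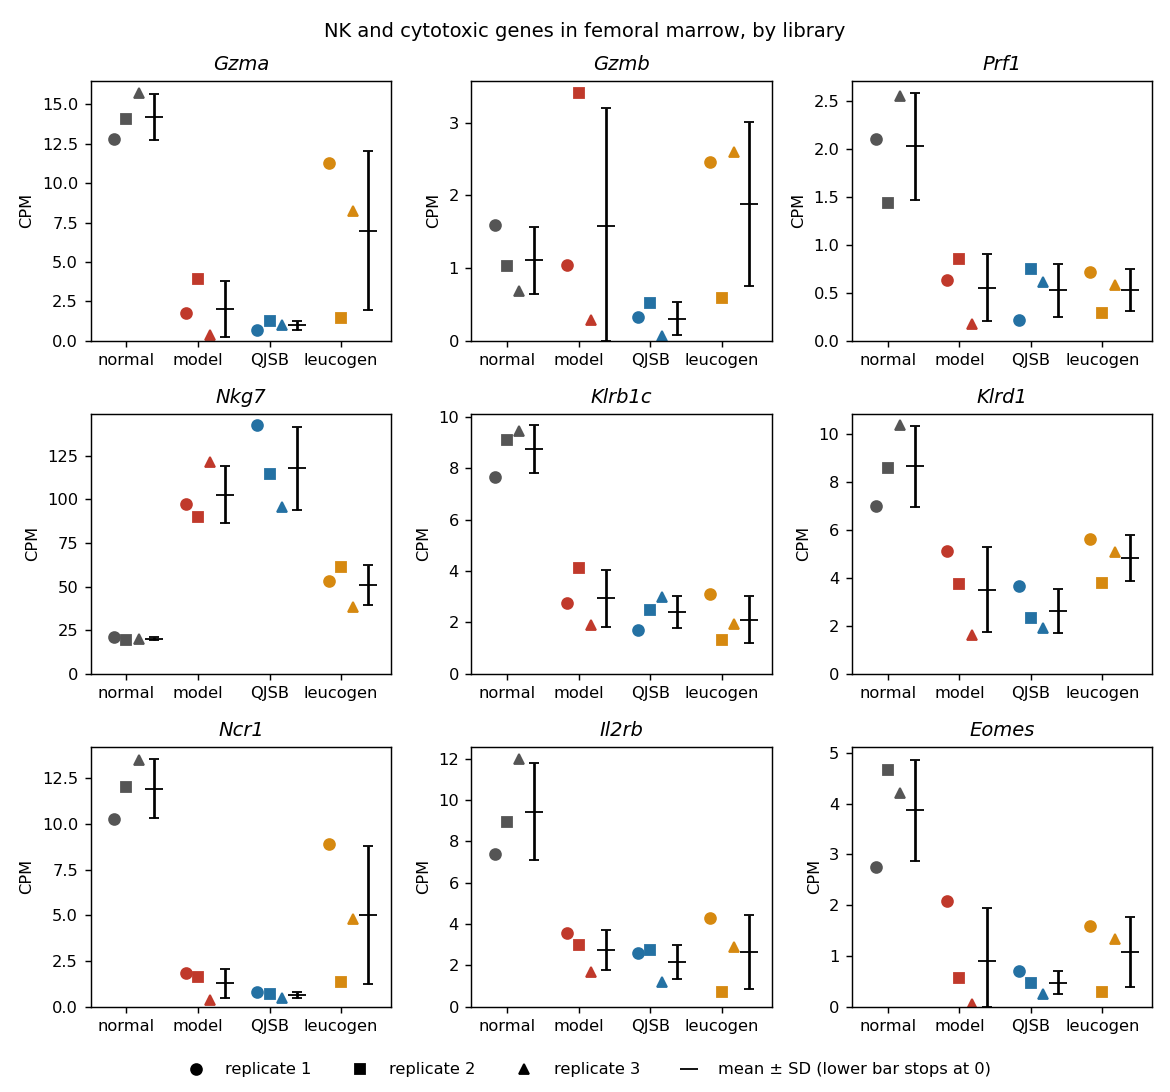
CPM (vertical axis, linear) of the 9 members in each library of the 4 groups (horizontal axis), with symbols for replicates 1 to 3 and a black bar for the mean ± SD, whose lower end stops at 0. Nkg7 is higher in all 9 cyclophosphamide libraries than in the normal libraries, and every other member except Gzmb is lower in all 9.

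The comparison of model with normal marrow asks what cyclophosphamide did to these genes. The 3 receptor transcripts, Gzma, Prf1 and Il2rb fell, Nkg7 rose, and Gzmb and Eomes did not pass the test. A gene was called changed at a fold change over 1.5 and a Benjamini-Hochberg adjusted p under 0.05 in edgeR's quasi-likelihood test across all 14752 genes tested. Of the 9 members, 6 were called lower and 1 higher, where 19.0% of all genes tested were called lower and 16.1% higher. The median log2 fold change of the members was -1.78, against 0.02 for all genes tested. With the cutoff of the study's methods, the same fold and an unadjusted P under 0.05, 7 members were lower and 1 higher, against 20.5% and 17.9% of genes. In whole marrow, fewer cells of a type and less RNA per cell cannot be told apart.

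Gzma, the most abundant granzyme of resting NK cells, stood at 12.8, 14.1 and 15.7 CPM in the normal libraries and at 1.73, 3.90 and 0.346 CPM in the model libraries. Every model library lay below every normal library. The level was 7.23-fold lower in model marrow, a log2 fold change of -2.85 with an SE of 0.64 (edgeR adjusted p = 0.0109), which was -3.74 without model replicate 2 and -2.34 without model replicate 3. Prf1, which encodes perforin, was low throughout, at 2.10, 1.44 and 2.55 CPM in normal and 0.635, 0.850 and 0.173 CPM in model marrow, and the groups did not overlap. It fell by 1.88 on the log2 scale (SE 0.53, edgeR adjusted p = 0.0207). The Prf1 call rested on few reads, 3 to 12 per model library, and was lost without normal replicate 1 (edgeR adjusted p = 0.0617) or normal replicate 3 (0.0772), in a range of 0.0127 to 0.0772 over all alternatives. Gzmb, the granzyme that rises when lymphocytes are activated, had 1.59, 1.03 and 0.689 CPM in normal marrow and 1.04, 3.40 and 0.288 CPM in model marrow. The groups overlapped, and the log2 fold change of 0.49 (SE 0.78, edgeR adjusted p = 0.645) rested on model replicate 2, without which it was -0.70.

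Among the receptors, Ncr1, which encodes the activating receptor NKp46 and is the member most restricted to NK cells and related innate lymphocytes, had the largest decrease of the 9. It stood at 10.3, 12 and 13.5 CPM in normal marrow and at 1.85, 1.63 and 0.346 CPM in model marrow. The groups were far apart, 9.35-fold on average, with a log2 fold change of -3.23 (SE 0.47, edgeR adjusted p = 0.00107). Klrb1c encodes NK1.1, a lectin-like activating receptor used to identify NK cells in several mouse strains. Its level was 7.67, 9.12 and 9.44 CPM in normal and 2.77, 4.11 and 1.90 CPM in model libraries, without overlap, and it fell by 1.58 on the log2 scale (SE 0.30, edgeR adjusted p = 0.00343). Klrd1 encodes CD94, the partner of the NKG2 receptors. It stood at 7.02, 8.57 and 10.4 CPM in normal and 5.13, 3.76 and 1.62 CPM in model marrow. These groups also did not overlap, with a log2 fold change of -1.30 (SE 0.39, edgeR adjusted p = 0.0261). The Klrd1 call was lost without model replicate 2 (edgeR adjusted p = 0.0696), normal replicate 2 (0.0659) or normal replicate 3 (0.0911), the highest of a range that started at 0.00473, and with scaling to total counts (0.0506).

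Il2rb, the receptor chain that passes interleukin-2 and interleukin-15 signals, was 7.39, 8.91 and 12 CPM in normal and 3.58, 2.98 and 1.67 CPM in model libraries. The groups were separate, and it fell by 1.78 on the log2 scale (SE 0.32, edgeR adjusted p = 0.00290). Eomes, the factor of NK cell maturation, stood at 2.75, 4.66 and 4.2 CPM in normal and at 2.08, 0.567 and 0.0577 CPM in model marrow. No model library reached the normal range, but model replicate 1 came close to it and model replicate 3 held 1 read. The log2 fold change was -2.08 (SE 0.80) and did not pass the adjusted threshold (edgeR adjusted p = 0.0737). It did so without model replicate 1 (edgeR adjusted p = 0.00368), and in DESeq2 (0.0171), and the range over all alternatives was 0.00368 to 0.190. In all, 8 of the 9 members had groups that did not overlap, against 55.4% of all genes tested.

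Nkg7 went the other way. It encodes a membrane protein of cytotoxic granules, and its transcript is known from NK and T cells and from cells of the myeloid lineage as well. It stood at 20.9, 19.5 and 19.8 CPM in normal marrow and at 97.3, 89.7 and 121 CPM in model marrow. The normal libraries agreed within 1.07-fold, and every model library was far above them. The rise was 5.14-fold, a log2 fold change of 2.36 with an SE of 0.15 (edgeR adjusted p = 1.9e-05). In the neutrophil list, the 2 genes of granulocyte precursors moved in the same direction. Mpo, which encodes myeloperoxidase, was 414, 341 and 345 CPM in normal and 3233, 2313 and 4708 CPM in model marrow (log2 fold change 3.22, SE 0.27, edgeR adjusted p = 6.24e-05). Elane, which encodes neutrophil elastase, rose by 2.67 on the log2 scale (SE 0.24, edgeR adjusted p = 9.25e-05). Model replicate 3 was the highest and model replicate 2 the lowest model library for Nkg7, Mpo and Elane alike. Of the 7 neutrophil genes, these 2 were called higher, Camp was called lower, and the summed level was 15021 to 18437 CPM in normal and 8129 to 20141 CPM in model marrow. The part of granulocyte precursors in the Nkg7 rise was not tested.

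**Figure D2:**
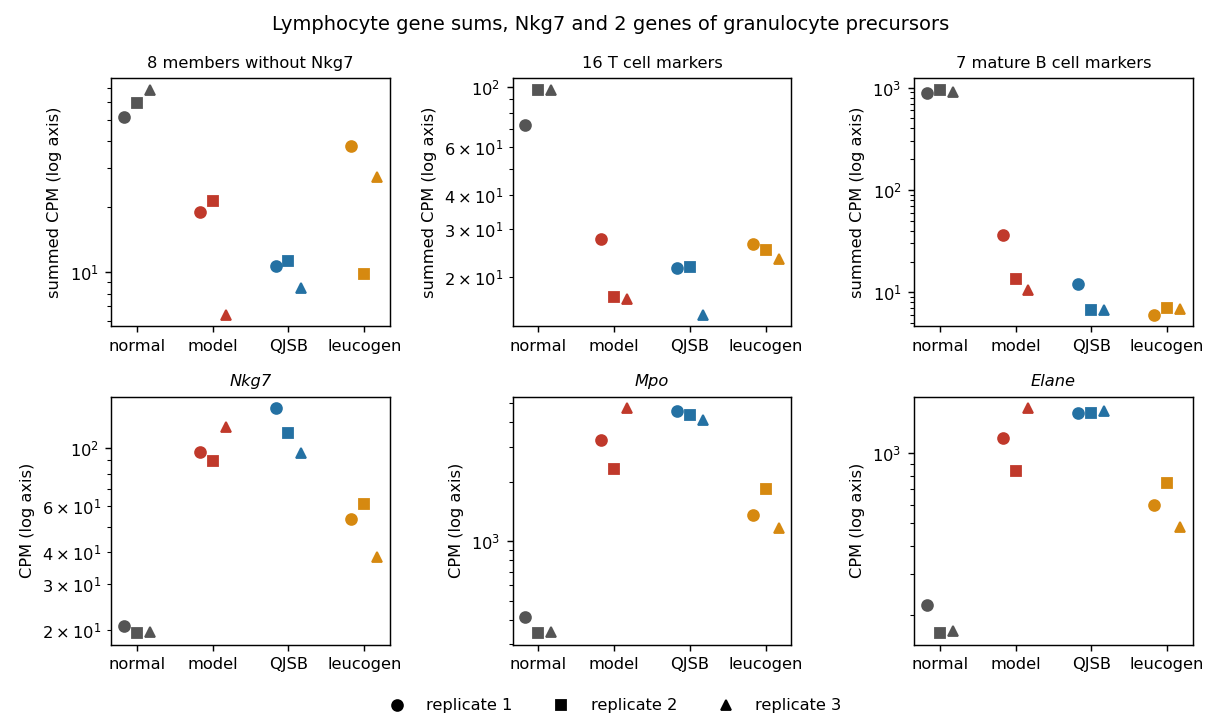
CPM on log axes (vertical) by group (horizontal) and replicate (symbols) for the sum of the 8 members without Nkg7, the sums of 16 T cell markers and 7 mature B cell markers, and the single genes Nkg7, Mpo and Elane. The 3 lymphocyte sums are highest in the normal libraries, and Nkg7, Mpo and Elane are lowest there.

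Other lymphocyte genes were lower in model marrow as well. Of 15 T cell markers tested (16 listed), 13 were called lower, with a median log2 fold change of -2.34, where 19.0% of all genes tested were called lower. The summed level of the 16 was 72.1 to 97.5 CPM in normal and 16.6 to 27.6 CPM in model libraries. Cd3d, a subunit of the T cell receptor complex, fell by 2.95 (SE 0.30, edgeR adjusted p = 0.000155), and Cd3e, Bcl11b, Trac, Trbc2 and Cd8b1 were each at 0 in 1 model library. All 7 mature B cell markers were called lower, with sums of 884 to 955 CPM in normal and 10.5 to 36.0 CPM in model marrow. In QJSB against model only 6 of the 16 T cell and 2 of the 7 B cell markers passed the filter on low counts. Markers tested here but not there entered mainly through their normal libraries and could hardly be called higher. The 6 erythroid markers were also all called lower, with sums of 7685 to 8356 CPM in normal and 46.6 to 501 CPM in model marrow. The 8 members without Nkg7, a grouping chosen after the values were seen, together held 51.6 to 68.5 CPM in normal and 6.4 to 21.2 CPM in model libraries. With Nkg7 included the sum went the other way, at 72.5 to 88.3 CPM in normal and 111 to 128 CPM in model libraries. The part of T cells in the members' values was not tested.

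Among the wider NK gene lists, the receptor list had the most genes called lower, and the adapter, granule release and cytokine signaling lists held calls in few genes or in both directions, where 19.0% of all genes were called lower and 16.1% higher. Of 18 NK receptor genes tested (22 listed), 12 were called lower, with a median log2 fold change of -2.36. In QJSB against model only 9 of the 22 passed the filter on low counts. Genes tested here but not there entered mainly through their normal libraries and could hardly be called higher. Most of the 12 belonged to the Ly49 (Klra) and NKG2 families, which include near copies of each other, and Slamf7, an activating receptor that B lineage cells also carry, fell by 4.05 (SE 0.42, edgeR adjusted p = 0.000335). Slamf7 was second to Fcgr3 in normal marrow, at 79.5 ± 4.74 against 124 ± 9.14 CPM (SD, n = 3). Fcgr3, Klrb1f and Cd244, with Slamf7 the 4 highest of the list in mean CPM over all 12 libraries, had log2 fold changes of -0.02, -0.08 and -0.23 and were not called. Of 5 adapter genes tested (6 listed), Tyrobp, which encodes DAP12, fell by 0.85 (SE 0.22, edgeR adjusted p = 0.0157), while Fcer1g had a log2 fold change of -0.01. Of 8 other granule and death ligand genes tested (10 listed), Ctsw, Fasl, Serpinb6b and Serpinb9 were called lower. Srgn and Ctsc were called higher, and both encode granule components that myeloid cells also make. Of the 8 genes of granule release, Lamp1 and Rab27a were called higher and Stx11 lower. Of the 13 cytokine signaling genes, Il15, Il12rb2, Stat4 and Jak1 were called lower and Il15ra and Jak3 higher. Among 9 transcription factors tested (11 listed), Ets1, Ikzf3 and Tox were called lower and Nfil3 higher, and Tbx21 did not pass the filter on low counts in this comparison.

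**Figure D3:**
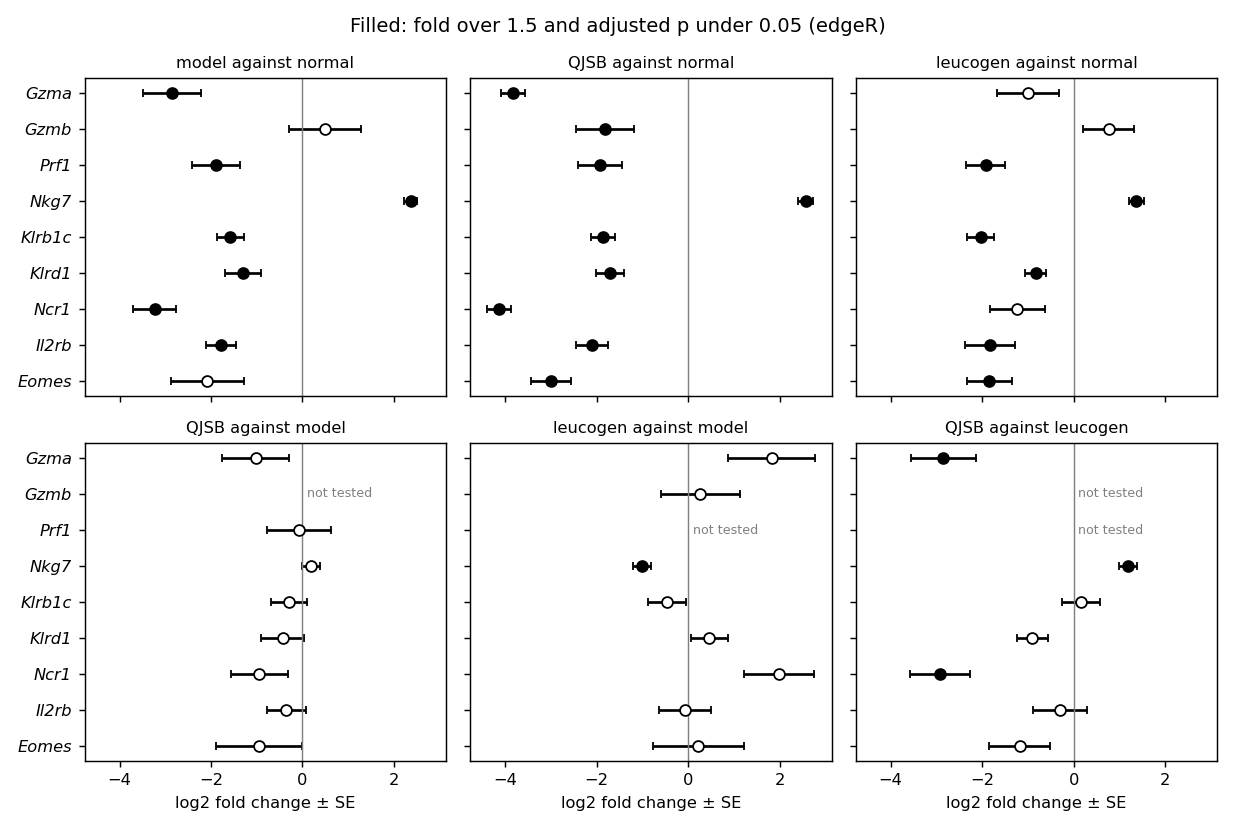
Log2 fold change ± SE (horizontal axis, edgeR) of each member (vertical axis) in the 6 comparisons; filled points passed a fold change over 1.5 and an adjusted p under 0.05, and members that did not pass the filter on low counts are marked as not tested. Nkg7 lies to the right of 0 and most members to the left in the 3 comparisons with normal marrow, and no point is filled in QJSB against model.

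The comparison of QJSB with model marrow asks whether the granule changed these genes in leucopenic mice. No difference passed the test. Of the 8 members tested, 0 were called in either direction with the adjusted threshold and 0 at an unadjusted P under 0.05, where over all 14486 genes tested 0 passed the adjusted threshold and 1.68% (higher) and 1.40% (lower) passed the unadjusted one. DESeq2 also called 0 members. The median log2 fold change of the members was -0.39, against -0.02 for all genes, and it ranged from -0.78 without model replicate 3 to -0.08 without model replicate 1. No member had groups that did not overlap, against 10.0% of all genes tested. The errors were wide, and a missed threshold does not show that the levels were equal.

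Gzma stood at 0.698, 1.27 and 0.974 CPM in the QJSB libraries, within the range of the model libraries (log2 fold change -1.02, SE 0.73, edgeR adjusted p = 0.777). Ncr1 was 0.805, 0.694 and 0.487 CPM, between the lowest and the second model library (log2 fold change -0.94, SE 0.62, edgeR adjusted p = 0.767). Nkg7 was 143, 115 and 95.8 CPM, which overlapped the model range with a log2 fold change of 0.18 (SE 0.20, edgeR adjusted p = 0.840). The other 5 members tested had log2 fold changes between -0.95 (Eomes, SE 0.94) and -0.08 (Prf1, SE 0.69). Gzmb did not pass the filter on low counts, with 6, 9 and 1 reads in the QJSB libraries. Among the wider NK lists, 0 receptor, adapter, granule, release, cytokine signaling or transcription factor genes were called in edgeR, and 1 receptor gene (lower) and 1 transcription factor gene (higher) passed the unadjusted cutoff.

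Compared with normal marrow, the cytotoxic and NK receptor transcripts were lower in the QJSB group. All 8 members other than Nkg7 were called lower and Nkg7 was called higher, where 19.9% of 14817 genes were called lower and 18.0% higher, and the median log2 fold change was -1.93 against 0.02 for all genes. All 9 members had groups that did not overlap, against 58.3% of genes. This comparison uses the same normal libraries as the one above, so the 2 are not independent. Ncr1 was 17.6-fold lower than in normal marrow (log2 fold change -4.13, SE 0.27, edgeR adjusted p = 3.56e-05) and Gzma 14.3-fold lower (-3.84, SE 0.26, edgeR adjusted p = 4.4e-05). Eomes stood at 0.698, 0.463 and 0.244 CPM and fell by 3.00 on the log2 scale (SE 0.43, edgeR adjusted p = 0.00117). Il2rb, at 2.58, 2.72 and 1.22 CPM, fell by 2.10 (SE 0.35, edgeR adjusted p = 0.00228), and Klrb1c, at 1.72, 2.49 and 2.98 CPM, fell by 1.86 (SE 0.26, edgeR adjusted p = 0.00105). Klrd1, at 3.65, 2.31 and 1.89 CPM, fell by 1.71 (SE 0.31, edgeR adjusted p = 0.00322) and Prf1 by 1.93 (SE 0.48, edgeR adjusted p = 0.0139), the latter with 0.215, 0.752 and 0.609 CPM. Nkg7 was 5.93-fold higher (log2 fold change 2.57, SE 0.17, edgeR adjusted p = 3.64e-05), beside Mpo at 3.58 (SE 0.15) and Elane at 3.02 (SE 0.16). Of the 7 neutrophil markers only these 2 were called, and the median log2 fold change over the 7 was 0.21. Gzmb, at 0.322, 0.521 and 0.0609 CPM, lay just under the threshold (log2 fold change -1.82, SE 0.64, edgeR adjusted p = 0.0495, range 0.0309 to 0.178 over the alternatives), and the call was lost without any 1 of 5 libraries, all but QJSB replicate 2, without which the log2 fold change was -2.42. With all libraries kept, the Gzmb call was also lost in DESeq2 (adjusted p = 0.0634) and with all 12 libraries in 1 edgeR fit (adjusted p = 0.120). The same held in edgeR with total counts (adjusted p = 0.0512) and without the filter (adjusted p = 0.0625). On the log2(FPKM + 1) scale its log2 fold change of -0.54 was under the fold threshold. The Prf1 call was lost without normal replicate 3 (edgeR adjusted p = 0.0559). Of 18 NK receptor genes tested, 15 were called lower, and many of them entered the test mainly through their normal libraries, as in model against normal marrow.

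The leucogen comparison asks the same question of the other drug. Against model marrow 1 of 8 members tested was called, and it was Nkg7, which was lower (11.5% of 14184 genes were called lower and 11.6% higher). The median log2 fold change of the members was 0.25, against -0.05 for all genes, and its direction rested on single libraries, with -0.25 without model replicate 3 and 0.67 without leucogen replicate 2. Groups did not overlap for 1 member, against 46.0% of genes. Nkg7 stood at 53.4, 61.2 and 38.3 CPM in leucogen marrow, below all model libraries and above all normal libraries. It was 2.01-fold lower than in model marrow (log2 fold change -1.01, SE 0.20, edgeR adjusted p = 0.00813). Mpo and Elane were lower as well, with log2 fold changes of -1.23 (SE 0.28, edgeR adjusted p = 0.0137) and -0.96 (SE 0.25, edgeR adjusted p = 0.0214), while the 5 genes of later neutrophil stages in the list, Camp, Ltf, Ngp, S100a8 and S100a9, were called higher. The part of these cells in the Nkg7 difference was not tested.

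Ncr1 and Gzma were split within the leucogen group. Ncr1 stood at 8.89, 1.38 and 4.80 CPM, so that replicates 1 and 3 lay above all model libraries and replicate 2 within them. The log2 fold change against model was 1.98 (SE 0.77) and passed only the unadjusted cutoff (edgeR adjusted p = 0.0927, unadjusted P = 0.0343), which 14.0% of genes passed in the higher and 15.6% in the lower direction. Without leucogen replicate 2 it was called (2.44, edgeR adjusted p = 0.0330), as in DESeq2 (adjusted p = 0.0115) and with all 12 libraries in 1 edgeR fit (adjusted p = 0.0314), in a range of 0.0115 to 0.266. Gzma followed the same order of libraries, at 11.3, 1.45 and 8.25 CPM (log2 fold change 1.83, SE 0.95, edgeR adjusted p = 0.197). Gzmb stood at 2.46, 0.580 and 2.59 CPM and Eomes at 1.59, 0.290 and 1.34 CPM, both within the spread of the model libraries. Prf1, at 0.715, 0.290 and 0.576 CPM, did not pass the filter on low counts. Klrb1c (3.10, 1.30 and 1.92 CPM), Klrd1 (5.64, 3.77 and 5.09 CPM) and Il2rb (4.29, 0.725 and 2.88 CPM) had log2 fold changes of -0.46 (SE 0.42), 0.47 (SE 0.41) and -0.06 (SE 0.57).

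Against normal marrow, 5 members were called lower in the leucogen group and Nkg7 higher, where 19.8% of 14637 genes were called lower and 17.8% higher. The median log2 fold change was -1.23, against -0.01 for all genes, and 8 of 9 members had groups that did not overlap, against 61.9% of genes. Klrb1c fell by 2.03 (SE 0.30, edgeR adjusted p = 0.000275), Prf1 by 1.92 (SE 0.43, edgeR adjusted p = 0.00407), Eomes by 1.85 (SE 0.49, edgeR adjusted p = 0.0107), Il2rb by 1.83 (SE 0.54, edgeR adjusted p = 0.0288) and Klrd1 by 0.82 (SE 0.23, edgeR adjusted p = 0.0121). Nkg7 was 2.58-fold higher (log2 fold change 1.37, SE 0.16, edgeR adjusted p = 6.61e-05). Gzma and Ncr1 were below the normal range in every leucogen library but were not called, with log2 fold changes of -1.01 (SE 0.68, edgeR adjusted p = 0.275) and -1.23 (SE 0.60, edgeR adjusted p = 0.144). Several of these results changed with a single library or with the fit. Ncr1 was called lower in DESeq2 with all libraries (-1.24, adjusted p = 0.0188), and in edgeR without leucogen replicate 1 (-1.98, edgeR adjusted p = 0.0163) or leucogen replicate 2 (-0.78, edgeR adjusted p = 0.0361), and Gzmb was called higher without leucogen replicate 2 (1.20, edgeR adjusted p = 0.0382). The Il2rb call was lost without leucogen replicate 3 or any 1 of the normal libraries (highest edgeR adjusted p = 0.0767), and the Klrd1 call without normal replicate 3 (0.0524). With all 12 libraries in 1 edgeR fit, the Klrd1 (adjusted p = 0.0906) and Eomes (adjusted p = 0.0790) calls were lost. Without leucogen replicate 1 the Il2rb log2 fold change was -2.43.

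Some genes of the wider NK lists, for cytokine signals, adapters and granule release, differed with leucogen. Il15 encodes interleukin-15, the cytokine on which NK cell survival depends and which Il2rb receives. It stood at 9.41, 9.60 and 8.06 CPM in normal, 4.85, 6.52 and 4.96 CPM in model, 6.98, 4.98 and 6.21 CPM in QJSB and 14.2, 12.4 and 13.7 CPM in leucogen marrow. The leucogen libraries were above all others, and the model and QJSB libraries overlapped. Il15 was lower in model than in normal marrow (log2 fold change -0.73, SE 0.21, edgeR adjusted p = 0.0241) and higher with leucogen than in model marrow (1.31, SE 0.21, edgeR adjusted p = 0.00463). Il15ra, its presenting receptor, rose by 1.79 (SE 0.24, edgeR adjusted p = 0.000659) in model marrow and differed from it by less than its error with leucogen (-0.0042, SE 0.19). Il18r1 and Il18rap, the receptor chains for interleukin-18, and Stat4 were also called higher with leucogen than in model marrow, and Il2rg and Stat5a lower. In all, 4 of 13 cytokine signaling genes were called higher and 2 lower, where 11.6% of all genes tested were called higher and 11.5% lower. Of 11 NK receptor genes tested in this comparison, Klrb1f was called higher and Cd244 lower. Tyrobp was higher by 0.97 (SE 0.21, edgeR adjusted p = 0.0119), and Lyst and Stx11, genes of granule release, were higher as well. Lyst stood at 2895 ± 282 and Il18rap at 433 ± 35.4 CPM (SD, n = 3) in leucogen marrow, beside 5.02 ± 3.76 CPM for Ncr1. The 7 neutrophil markers summed to 45100 to 53708 CPM in leucogen and 8129 to 20141 CPM in model libraries. Of these 7, 5 were called higher and 2 lower. The cell types behind these differences were not tested. Of 6 T cell markers tested, Cd3d was called higher and Cd6 lower, with T cell sums of 23.3 to 26.5 CPM in leucogen marrow.

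The 2 drugs were compared directly, after the same cyclophosphamide. QJSB marrow had less Gzma and Ncr1 and more Nkg7 than leucogen marrow. Of 7 members tested, 2 were called lower and 1 higher in QJSB, where 11.7% of 14266 genes were called lower and 12.9% higher, and 4 members had groups that did not overlap, against 48.7% of genes. The median log2 fold change of the members was -0.90, against 0.03 for all genes. Ncr1 was 7.59-fold lower with QJSB (log2 fold change -2.92, SE 0.65, edgeR adjusted p = 0.0130), and even the lowest leucogen library, at 1.38 CPM, lay above the highest QJSB library, at 0.805 CPM. Gzma was 7.19-fold lower (log2 fold change -2.85, SE 0.70, edgeR adjusted p = 0.0213), with 1.45 CPM in the lowest leucogen and 1.27 CPM in the highest QJSB library. Both genes had few reads per QJSB library, 8 to 15 for Ncr1 and 13 to 22 for Gzma. Nkg7 was 2.28-fold higher with QJSB (log2 fold change 1.19, SE 0.21, edgeR adjusted p = 0.00548), beside Mpo at 1.56 (SE 0.21, edgeR adjusted p = 0.00311) and Elane at 1.28 (SE 0.19, edgeR adjusted p = 0.00343). The other 5 of the 7 neutrophil markers had log2 fold changes below 0, of which S100a9 was called lower (-1.60, SE 0.47, edgeR adjusted p = 0.0373) and S100a8 and Camp passed only the unadjusted cutoff, and the median over the 7 was -0.83. Klrd1 passed only the unadjusted cutoff (log2 fold change -0.90, SE 0.33, edgeR adjusted p = 0.0708), which 14.8% of genes passed in the lower and 15.8% in the higher direction. Klrb1c, Il2rb and Eomes overlapped between the drugs, with log2 fold changes of 0.16 (SE 0.41), -0.29 (SE 0.59) and -1.18 (SE 0.66). The Gzma call was lost without any 1 of 5 libraries, all but leucogen replicate 2, and the Ncr1 call without leucogen replicate 3 (edgeR adjusted p = 0.0505), so that without that library 0 members were called lower. Without leucogen replicate 1 the Ncr1 log2 fold change was -2.21. Treating the replicate number as a block left the Ncr1 and Nkg7 calls and lost the Gzma call (edgeR adjusted p = 0.0655). Of 11 NK receptor genes tested, Klra8, Klri2 and Klrb1f were called lower with QJSB, and Il15, Il18r1, Stat4, Tyrobp, Serpinb9, Lyst and Vamp7 were called lower in their lists, and Jak3 and Stat5a higher.

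**Figure D4:**
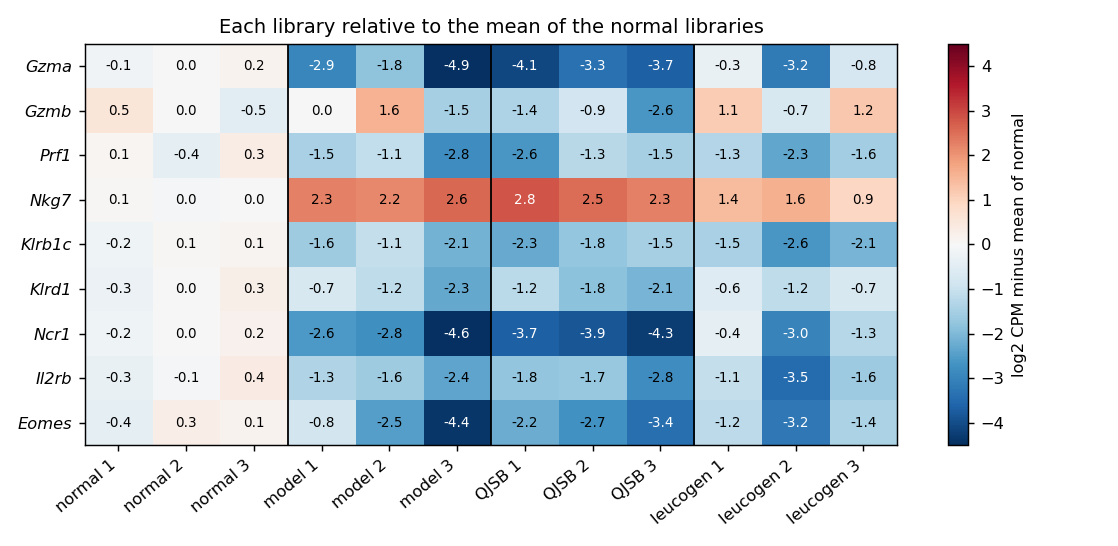
Log2 CPM of each member (rows) in each library (columns) minus the mean of the normal libraries, with a small constant added to counts before the log, coloured from blue (lower) to red (higher). Model replicate 3 and leucogen replicate 2 are the lowest columns of their groups for all 8 members other than Nkg7.

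In the model and leucogen groups, 1 library was the lowest for every member other than Nkg7. Model replicate 3 was the lowest model library for 8 of the 8, and leucogen replicate 2 the lowest leucogen library for 8 of the 8. The QJSB libraries had no such order, with replicate 1 lowest for 3 and highest for 3 of the 8, replicate 2 highest for 4 and replicate 3 lowest for 5. In normal marrow, replicate 1 was lowest for 6 of the 8 and for 14 of 16 T cell markers. Normal replicate 3 was highest for 6 of the 8 and for 10 of the 16. Summed over the 8, the leucogen libraries held 38, 9.78 and 27.4 CPM, the model libraries 18.8, 21.2 and 6.4 CPM and the QJSB libraries 10.7, 11.2 and 8.46 CPM. Leucogen replicate 2 was therefore at the level of the QJSB libraries, while the other leucogen libraries lay above all model and QJSB libraries. For T cell markers, leucogen replicate 2 was the lowest of its group for 5 of 16 and the highest for 7 of 16. Libraries tied for a place were each counted, and the 16 markers together held only 23.3 to 26.5 CPM in leucogen marrow. In model marrow, where the 16 markers held 16.6 to 27.6 CPM, replicate 1 was the highest library for 14 of the 16. In model replicate 3, 9 of 16 T cell markers were the lowest of their group. The spread between libraries differed by gene. The highest model library exceeded the lowest by 36.0-fold for Eomes, 11.8-fold for Gzmb and 11.3-fold for Gzma, by 4.91-fold for Prf1 and by 1.35-fold for Nkg7.

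Likeness was measured over the 12 libraries as the mean absolute difference between a gene's log2 CPM, centred on its own mean, and the mean centred profile of the 9 members, among 15301 genes. The nearest genes were Gm37706 (0.198), Gm37463 (0.222), Gm36932 (0.224), A530040E14Rik (0.247) and Igtp (0.251), of which Igtp encodes an interferon-induced GTPase. Igtp stood at 61.9 ± 15.0 CPM in normal, 25.5 ± 7.52 in model, 15.4 ± 4.35 in QJSB and 30.1 ± 10.1 CPM in leucogen marrow (SD, n = 3). Klrd1 was the member nearest to the mean profile (0.247) and Nkg7 the farthest from it (1.62). Because Nkg7 differed so much, its nearest genes were also ranked on their own, a step chosen after its values were seen. They were Gm5424 (0.143), Etfb (0.167), Emilin1 (0.179), Ass1 (0.192) and Lrp1 (0.198). Etfb, which encodes a subunit of the mitochondrial electron transfer flavoprotein, starts 5833 bases beyond Nkg7 on chromosome 7, with Cldnd2 between them, and rose by 2.00 in model marrow (SE 0.16, edgeR adjusted p = 6.07e-05). Without Nkg7, a profile also chosen after the values were seen, the nearest genes were Pgap1 (0.256), Gm37212 (0.289), Timd4 (0.310), Igtp (0.321) and Gbp9 (0.323).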

How the data were processed

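RNA of total femoral marrow cells from 12 mice was sequenced from rRNA-depleted, strand-specific libraries, which the authors filtered with Seqtk and aligned with HISAT2 to GRCm38.p4 (mm10). The authors deposited 1 table of read counts and FPKM values per gene and library for 34745 genes. The counter, its strand setting and the annotation release are not given in the sources used here. Totals were 11172547 to 18545198 counts per library. CPM values were computed here from those deposited counts.

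Counts were tested with edgeR 4.0.16 (TMM, filterByExpr, robust quasi-likelihood fit) on the libraries of the 2 groups compared, with Benjamini-Hochberg adjustment over all genes tested. A gene was called at a fold change over 1.5 and an adjusted p under 0.05. A result at the unadjusted P under 0.05 used in the study is named as such. Members below the filter are named where it applies: 9 passed in each comparison with normal marrow, 8 in QJSB against model and in leucogen against model, and 7 in QJSB against leucogen. On simulated counts for model against normal (14752 genes), 84 of 100 genes changed 4-fold and 50 of 100 changed 2-fold were recovered, with 6 false calls among 140. Alternatives were DESeq2 1.42.0, its size factors, total counts, no filter, all 12 libraries fitted together, a block for the replicate number, limma 3.58.1 on log2(FPKM + 0.1) and log2(FPKM + 1), and each library left out. p-values measure the spread between 3 mice per group.

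Libraries with the same replicate number came from different mice. Their deviations from the group means correlated above 0.1 in every pair only in QJSB against model (0.426, 0.123 and 0.107 over 15310 genes). No 2 replicates agreed within sampling noise. The members and the other gene lists were chosen with earlier results of these data known. The text names all members, the up to 4 most abundant genes of each list, genes behind a count of 5 or fewer, the 5 genes most like the members and the adjoining genes. Sequences are RefSeq promoter windows.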

Additional observations from a re-analysis of the deposited data

Results flagged for a closer look

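The 2 drugs were given to mice with the same cyclophosphamide, and for 3 members the difference between their effects was itself past the threshold in edgeR. The log2 fold change of QJSB against leucogen marrow was -2.85 for Gzma, -2.92 for Ncr1 and 1.19 for Nkg7. Against the shared model libraries, Gzma had log2 fold changes of -1.02 with QJSB and 1.83 with leucogen, Ncr1 of -0.94 and 1.98, and Nkg7 of 0.18 and -1.01. For Gzma and Ncr1 neither drug differed from model marrow past the adjusted threshold on its own. Both genes were lowest in leucogen replicate 2, at 1.45 and 1.38 CPM, and with each library left out in turn the difference between the drugs ranged from -3.33 (without leucogen replicate 2) to -2.31 (without leucogen replicate 1) for Gzma and from -3.38 to -2.21 for Ncr1, without the same libraries. The Gzma call was lost without any 1 of 5 libraries, all but leucogen replicate 2, and the Ncr1 call without leucogen replicate 3.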

How the results depend on the processing

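Over the alternatives that kept all libraries, 381 values of single members kept their direction and their side of the threshold, 6 passed it newly, 13 no longer passed it and 0 turned. The median log2 fold change of the members shrank on the log2(FPKM + 1) scale, which compresses low levels, to -0.76 in model against normal, -0.89 in QJSB against normal, -0.66 in leucogen against normal and -0.10 in QJSB against leucogen. In QJSB against leucogen this median was over 9 members and that of the main test over 7, so the 2 medians differ in their genes as well as in scale. The number of members called higher in leucogen against model was 1 in DESeq2 and 1 with all 12 libraries in one fit. The number called lower in leucogen against normal was 3 with all 12 libraries, and in QJSB against leucogen it was 1 on the log2(FPKM + 1) scale.

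With the replicate number as a block, the number of members called lower in QJSB against leucogen was 1, since Gzma was lost (log2 fold change -2.53, edgeR adjusted p = 0.0655), although the numbers mark no shared animal there. The block changed no call of a member in QJSB against model, the comparison in which same-numbered libraries deviated together.

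With each library left out in turn, the median over the members ranged from -2.01 to -1.44 in model against normal, from -0.78 to -0.08 in QJSB against model, from -0.25 to 0.67 in leucogen against model, from -2.28 to -1.89 in QJSB against normal, from -1.98 to -0.78 in leucogen against normal and from -1.22 to -0.24 in QJSB against leucogen. The members that passed the filter were not the same in every such fit. In QJSB against leucogen they were 8 without leucogen replicate 1 and 9 without QJSB replicate 1. The number called higher ranged from 0 to 1 in leucogen against model and from 1 to 2 in leucogen against normal. The number called lower ranged from 4 (without normal replicate 3) to 7 in model against normal and from 6 to 8 in QJSB against normal. It ranged from 3 to 6 in leucogen against normal and from 0 to 3 in QJSB against leucogen. Members not called turned direction when 1 library was left out: Gzmb in model against normal (-0.70 to 1.00), Prf1 (-0.51 to 0.35), Eomes (-1.5 to 0.63) and Klrb1c (-0.53 to 0.018) in QJSB against model, Eomes (-0.30 to 1.83), Il2rb (-0.62 to 0.40) and Gzmb (-0.21 to 1.52) in leucogen against model, and Klrb1c (-0.10 to 0.56) and Il2rb (-0.75 to 0.27) in QJSB against leucogen. The cause was not tested. Depth limits Gzmb, Prf1 and Eomes most, which had 1 to 13 reads per library in QJSB marrow. It limits Ncr1 and Gzma there as well, with 8 to 15 and 13 to 22 reads per library.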

Other observations

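Single trafficking and effector cytokine genes of NK cells differed after cyclophosphamide. Cxcr6, a chemokine receptor of liver and marrow NK cells, stood at 1.45, 1.71 and 2.21 CPM in normal and 0.231, 0.0709 and 0 CPM in model marrow (log2 fold change -4.02, SE 0.68, edgeR adjusted p = 0.00200). S1pr5, which NK cells need to leave the marrow, was 2.24, 2.19 and 1.65 CPM in normal and 1.15, 0.850 and 0.231 CPM in model libraries, without overlap (log2 fold change -1.44, SE 0.51, edgeR adjusted p = 0.0511), and was called lower in the QJSB and leucogen groups against normal. Of the 8 trafficking genes, Cxcr6 was called lower and the integrin gene Itga1 higher in model against normal marrow, where 19.0% of all genes tested were called lower and 16.1% higher. The summed level of the 8 was 459 to 467 CPM in normal and 538 to 623 CPM in model libraries. Ccl5, a chemokine of cytotoxic lymphocytes, was 1.45, 2.13 and 2.41 CPM in normal marrow and was at 0 in 2 of the 3 model libraries. Of the 5 effector cytokine genes listed, only Ccl5 and Ccl3 were tested, and both were called lower, beside the same 19.0% of all genes tested. In QJSB against model 0 of the 5 passed the filter on low counts. Ccl5 and Ccl3 thus entered mainly through their normal libraries and could hardly be called higher.

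Genes next to the members did not all move with them. Klre1, which lies 5954 bases from Klrd1, fell by 4.26 on the log2 scale in model marrow (SE 0.49, edgeR adjusted p = 0.000294). C1qtnf6, beside Il2rb, rose by 2.05 (SE 0.35, edgeR adjusted p = 0.00219), while Il2rb fell. Cldnd2, beside Nkg7, rose by 1.30 (SE 0.36, edgeR adjusted p = 0.0193), and Lilra5, before Ncr1, fell by 2.04 (SE 0.29, edgeR adjusted p = 0.000916). Unlike Nkg7, Cldnd2 had a higher mean in leucogen than in model marrow, at 3.14 ± 0.236 against 1.79 ± 0.414 CPM (SD, n = 3). Among the other neighbours tested in model against normal, Klrk1 was called lower and Cmc1 higher. Adamts14, Pald1, Klrb1b, Gp6 and Golga4 were not called. Of the other cell types listed, 4 of 6 basophil and mast cell markers and 2 of 6 plasmacytoid dendritic cell markers were called lower in model against normal marrow, where 19.0% of all genes tested were called lower. The median log2 fold change was -1.29 for the basophil and mast cell list. It was -0.28 for the plasmacytoid list, in which 2 genes had values above 0.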
